A study of Mus musculus with 6 samples.

Results

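Somatostatin (Sst), the CART prepropeptide (Cartpt) and the somatostatin receptors (Sstr1 to Sstr5) were followed in stellate ganglia of mice with transverse aortic constriction (TAC) and of sham-operated mice. The 7 genes were taken by name, as every probe set annotated with exactly 1 symbol that matched, which gave 7 of 18193 genes with a symbol of their own and 9 of the 45037 probe sets of the array other than controls. Stellate ganglia are the sympathetic ganglia that send most of the noradrenergic fibres to the heart, and TAC narrows the aorta so that the left ventricle pumps against a raised pressure. The groups were 3 TAC mice and 3 sham-operated mice, all male C57/Bl6 and sampled 8 weeks after surgery. RNA from both ganglia of an animal went onto 1 array, so that each array is 1 animal, named by the letter A, B or C of its title. The labels named no transgene, drug or age, and the letters gave no pairing of the animals.

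Values are log2 of GCRMA intensities. Probe sets with a mean log2 under 4 over the 6 arrays were treated as dim, since GCRMA gives no detection call and values so low lie near the background. Of the 9 probe sets, 3 passed, those of Sst, Cartpt and Sstr2, and 6 were dim. The mean nearest above the floor was 5.0 for Sst and the mean nearest below it was 3.13 for Sstr3. Sst passed only through its TAC arrays. The genes were chosen with their TAC and sham values known, Sst and Cartpt being selected on their TAC minus sham differences. The contrast is therefore described for them without a p-value.

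Somatostatin is a cyclic peptide cut from a larger precursor. It is released by many neurons and endocrine cells and mostly inhibits its targets. Its receptors are Gi/o-coupled, lower cAMP, open inwardly rectifying potassium channels and close calcium channels, and in rat sympathetic neurons somatostatin inhibits calcium currents. CART peptides are cut from the Cartpt product and stored in dense-core vesicles, and no receptor for them is generally agreed. The cAMP response element (CRE), the binding site of the transcription factor CREB, was characterised in the rat somatostatin promoter, and Cartpt is also known as a cAMP-responsive gene.

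The upstream sequences of the 3 genes that passed the floor are shown because each held a complete CRE. They are the 250 bases before the start site in RefSeq's GRCm38.p6 annotation, 5′ to 3′ on the gene's own strand, with the letters TGACGTCA in capitals. The Sst window lies at chr16:23890845-23891094 on the minus strand, the Cartpt window at chr13:99900684-99900933 on the minus strand and the Sstr2 window at chr11:113619077-113619326 on the plus strand.
Sst: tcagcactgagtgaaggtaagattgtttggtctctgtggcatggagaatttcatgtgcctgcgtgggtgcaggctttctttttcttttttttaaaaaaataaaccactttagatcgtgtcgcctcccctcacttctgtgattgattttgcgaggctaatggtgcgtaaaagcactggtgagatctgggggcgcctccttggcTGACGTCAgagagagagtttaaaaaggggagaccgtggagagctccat
Cartpt: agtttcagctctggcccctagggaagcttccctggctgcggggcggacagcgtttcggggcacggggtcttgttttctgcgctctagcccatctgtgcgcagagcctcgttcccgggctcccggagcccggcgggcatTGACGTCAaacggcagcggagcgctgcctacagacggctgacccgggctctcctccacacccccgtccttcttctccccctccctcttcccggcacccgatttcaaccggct
Sstr2: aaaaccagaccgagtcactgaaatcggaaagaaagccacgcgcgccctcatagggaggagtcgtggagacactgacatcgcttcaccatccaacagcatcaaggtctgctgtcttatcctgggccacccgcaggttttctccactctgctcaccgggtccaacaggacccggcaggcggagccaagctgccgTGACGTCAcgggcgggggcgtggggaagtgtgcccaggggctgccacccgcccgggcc
The first base of the CRE lay 48 bases before the start in Sst, 112 bases before it in Cartpt and 58 bases before it in Sstr2. The motif reads the same on both strands, and 508 of all 32851 windows of this length in the table held it, or 1.55%. The shorter CRE core TGACG, searched on both strands, occurred 2 times in each of the 3 windows, in both cases inside the complete site, and 17.8% of all windows held it. The AP-1 motif TGANTCA, also searched on both strands, had 0 matches in these windows, against 6.75% of all windows with a match. The complete CRE had 0 matches in the window of Sstr4, 0 in those of both start sites of Sstr3 and 0 in that of cortistatin (Cort), and windows of Sstr1 and Sstr5 were not searched here. The RefSeq spans of Sst, Cartpt and Sstr3 reach further upstream than these windows, so that other start sites of these genes exist. A match describes the letters of the window and not binding.

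Sst measured 6.22, 6.07 and 7.05 log2 on TAC A, B and C, against 3.56, 3.52 and 3.60 on sham A, B and C. On the linear scale these were intensities of 74.7, 67.3 and 132 on the TAC arrays, against 11.8, 11.4 and 12.1 on the sham arrays. The 3 sham arrays lay under the floor within 0.08 of each other, and every TAC array lay far above them, with a gap of 2.47 between the lowest TAC and the highest sham value. The TAC mean was 6.45 ± 0.52 and the sham mean 3.56 ± 0.04 (SD, n = 3 each), a difference of 2.89 (limma SE 0.25) or 7.41-fold. Because the sham values are near background, this fold is uncertain. With the sham mean set at the floor it was 5.46-fold, and on the scale of log2(intensity + 16) the difference was 1.90. Within the TAC group the values spanned 0.97, with TAC C the highest and TAC A and B close together.

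Cartpt measured 8.88, 8.31 and 8.40 log2 on TAC A, B and C, against 6.78, 6.57 and 6.57 on sham A, B and C. Unlike Sst, its probe set was above the floor on every array of both groups. The intensities were 470, 318 and 338 on the TAC arrays, against 110, 94.8 and 95.1 on the sham arrays. The TAC mean was 8.53 ± 0.30 and the sham mean 6.64 ± 0.12 (SD, n = 3 each), a difference of 1.89 (limma SE 0.16) or 3.70-fold, and the groups were separated by a gap of 1.53. The array order differed from that of Sst, since Cartpt was highest on TAC A and Sst on TAC C. The brown fat gene Ucp1 measured 3.72, 6.82 and 3.60 on TAC A, B and C, against 3.98, 4.64 and 8.53 on sham A, B and C. Neither peptide was highest in its TAC group on TAC B. Among the sham arrays Sst was highest on sham C, at 3.60, and Cartpt on sham A, at 6.78. The part of brown fat in the peptide differences was not tested.

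**Figure D1:**
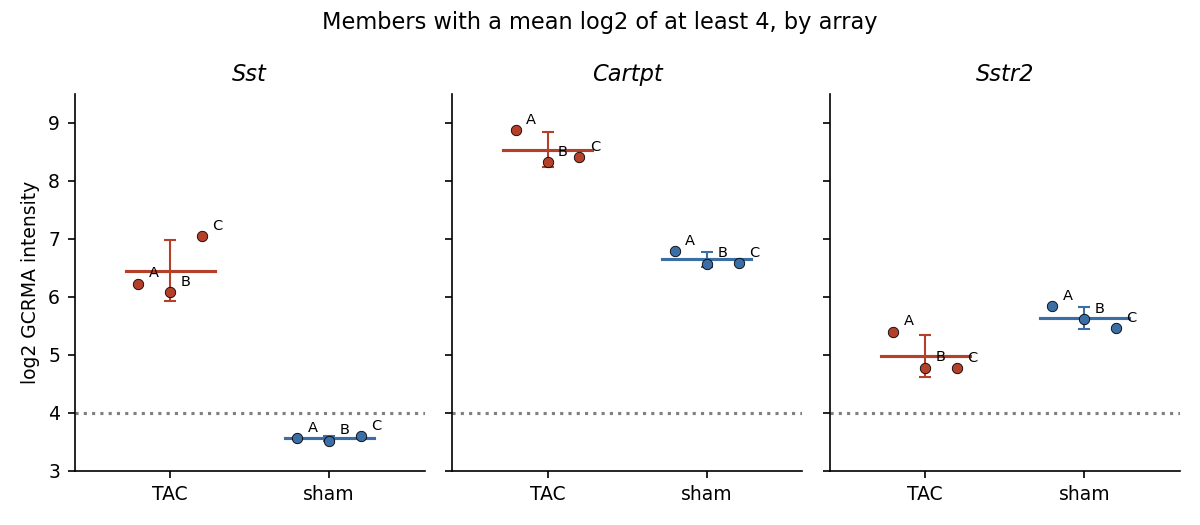
Log2 GCRMA intensity (vertical axis) of Sst, Cartpt and Sstr2 on each TAC array (left) and sham array (right), lettered A to C, with the group mean as a horizontal line, the SD as error bars and the floor of 4 as a dotted line. The 3 TAC arrays lie above the 3 sham arrays for Sst and Cartpt and below them for Sstr2, and the sham values of Sst lie under the floor.

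Sstr2, a receptor widely expressed in neurons, was the 1 receptor gene above the floor. It measured 5.40, 4.77 and 4.77 log2 on TAC A, B and C, against 5.83, 5.61 and 5.46 on sham A, B and C. The groups did not overlap, but TAC A and sham C were only 0.06 apart, less than the spread within either group. The TAC mean was 4.98 ± 0.36 and the sham mean 5.63 ± 0.19 (SD, n = 3 each), a difference of -0.65 (limma SE 0.20), or 1.57-fold lower in TAC ganglia. With 1 array left out in turn the difference ran from -0.86 to -0.55, and it was -0.86 without TAC A. On the scale of log2(intensity + 16) the difference with all arrays was -0.46. The opposite directions of Sst and of its receptor Sstr2 are values of the same 6 arrays.

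Sstr1, Sstr3, Sstr4 and Sstr5 were dim in both groups, with values between 2.07 and 3.36 log2 over their 6 probe sets and the 6 arrays. Sstr1 measured 2.10, 2.11 and 2.10 on TAC A, B and C, against 2.12, 2.14 and 2.14 on sham A, B and C. The brightest of these probe sets, 1 of the 2 for Sstr3, a receptor known from neuronal cilia, measured 3.07, 3.06 and 3.03 on the TAC arrays, against 3.08, 3.36 and 3.21 on the sham arrays. Its second probe set averaged 2.20 ± 0.0024 in TAC and 2.23 ± 0.016 in sham ganglia (SD, n = 3 each). These values sit so close together that they show little beyond the background.

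The 2 probe sets of Sstr4 averaged 2.08 and 2.12 in TAC ganglia, against 2.11 and 2.14 in sham ganglia. Sstr5, best known from endocrine cells, averaged 2.37 ± 0.012 in TAC and 2.40 ± 0.029 in sham ganglia (SD, n = 3 each). All 6 dim receptor probe sets had a lower TAC mean, by 0.02 to 0.17 log2, but so did 87% of all 27487 dim probe sets of the array. In 4 of the 6 every TAC array lay below every sham array, as in 71.6% of all dim probe sets. After quantile normalization 4 of the 6 had a higher TAC mean, so that no direction can be given for these receptors. Cortistatin (Cort), a related peptide that binds the same receptors, was also dim, at 2.92, 2.92 and 2.92 on TAC A, B and C, against 2.93, 3.12 and 2.95 on sham A, B and C.

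**Figure D2:**
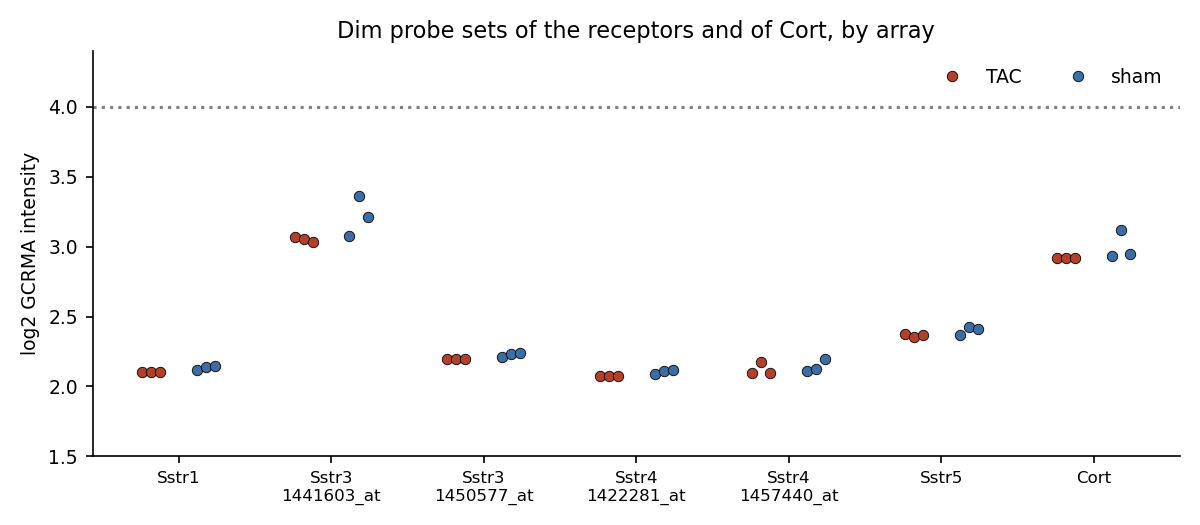
Log2 GCRMA intensity (vertical axis) of the 6 dim receptor probe sets and of Cort on each array, TAC in red on the left and sham in blue on the right of each pair, with the floor of 4 as a dotted line. The points lie between 2.07 and 3.36, all under the floor.

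Across the array, limma called 0 of 17550 tested probe sets between TAC and sham ganglia (adjusted p under 0.05), or 0%. At an unadjusted p under 0.05 there were 1594 probe sets, of which 1059 (6.03%) were higher and 535 (3.05%) lower. Groups without overlap were found for 1583 tested probe sets with TAC higher (9.02%) and for 1554 with TAC lower (8.85%). Ordered by the size of the difference, Sst stood at place 2 and Cartpt at place 6 from the highest, and Sstr2 at place 75 from the lowest, of 17550. These places restate the values by which the genes were chosen. A whole ganglion was measured, so more cells that express a gene and more of its RNA per cell cannot be told apart.

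**Figure D3:**
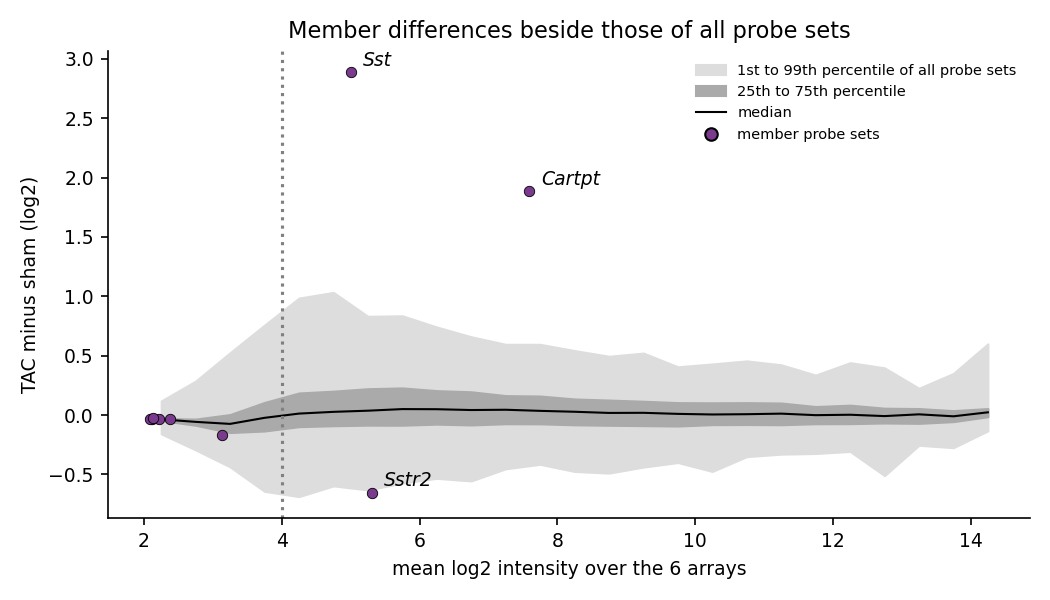
TAC minus sham difference in log2 (vertical axis) against the mean log2 intensity over the 6 arrays (horizontal axis), with the percentiles of all probe sets in bands and the member probe sets as points. Sst at 2.89 and Cartpt at 1.89 lie above the band of the 1st to 99th percentile at their level. Sstr2 at -0.65 lies just below the lower edge of the band. The dim receptors sit at the left with small differences, some of them left of where the drawn band begins.

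To describe which genes ran most like the 2 peptides, log2 values were centred on their mean over the 6 arrays and compared by the root-mean-square difference. Nearest to Sst was the noncoding host gene Mir670hg at 0.72, followed by Bcl11b, a zinc finger transcription factor, at 0.83, Zfp655 at 0.85, Rerg at 0.87 and Cirbp, a cold-inducible RNA-binding protein, at 0.92. Nearest to Cartpt were the Ras-like gene Rerg at 0.41, Mir670hg at 0.42, AI467606 at 0.47, N4bp1 at 0.48 and Zfp655 at 0.49. Cartpt itself differed from Sst by 0.63, less than any of the 5 non-member genes nearest to Sst and more than those nearest to Cartpt. Both peptides were selected on their TAC minus sham differences, which this measure follows. Their likeness therefore restates that selection and is not read as a shared regulation. Rerg, Mir670hg and Zfp655 appear for both peptides. The complete CRE had 0 matches in the upstream windows of Mir670hg, Bcl11b, Zfp655, Cirbp, AI467606 and N4bp1, and no window was available for Rerg. Because only 1.55% of all windows held the motif, 0 matches would be usual in so few windows. No contrast with the windows of Sst and Cartpt is drawn from this count.

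Rerg measured 7.38, 7.06 and 7.61 log2 on TAC A, B and C, against 6.33, 5.87 and 6.22 on sham A, B and C. Mir670hg measured 4.90, 5.76 and 4.92 on the TAC arrays, against 3.27, 3.29 and 3.29 on the sham arrays. Like Sst, Mir670hg was under the floor and nearly constant on the sham arrays. Bcl11b was at 4.29, 5.29 and 5.89 on TAC A, B and C, against 3.80, 3.78 and 3.78 on the 3 sham arrays, and like Sst it was highest on TAC C. Cirbp had its highest value on TAC B, at 7.32, against 5.56 on TAC A and 6.18 on TAC C, an order that Sst did not share. The measure follows both the group difference and the spread within groups, and it rests on 6 arrays.

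**Figure D4:**
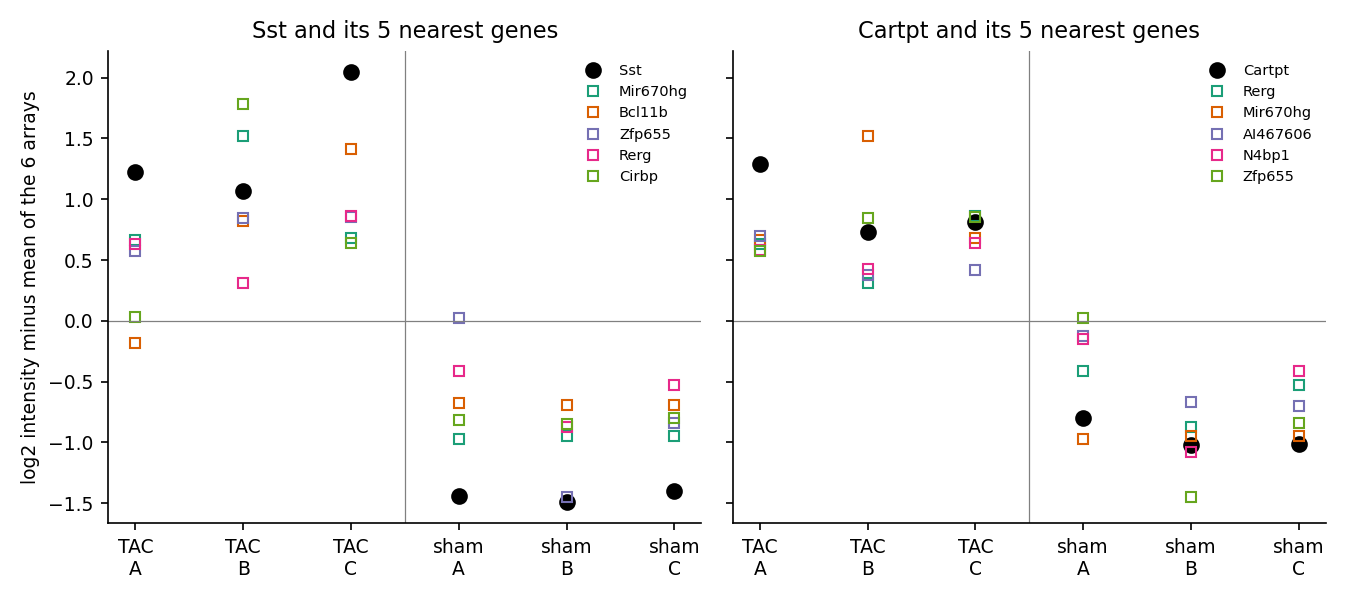
Log2 intensity minus the mean of the 6 arrays (vertical axis) on each TAC and sham array (horizontal axis) for Sst (left) and Cartpt (right), in black, with the 5 nearest genes of each as open squares. Sst and Cartpt separate the groups by more than most of the genes nearest to them, and Mir670hg and Cirbp peak on TAC B.

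The enzymes that cut and break down such peptides were described as a list of 17 genes, of which 13 were tested. Limma called 0 of them higher and 0 lower, with 2 higher and 0 lower at an unadjusted p under 0.05, against 6.03% higher and 3.05% lower over all tested probe sets. Across the alternatives these were 2 to 5 genes, with 5 (4 higher, 1 lower) under the trend and robust variance model. The median difference was 0.21, against 0.02 over all 9955 tested genes, and 9 of the 13 had a higher mean, against 55.0% of all tested genes. Pcsk1, a prohormone convertase, measured 8.82, 9.61 and 8.84 log2 on TAC A, B and C, against 8.24, 8.44 and 8.17 on sham A, B and C, a difference of 0.81 (SE 0.22, limma adjusted p = 0.516). All TAC arrays lay above the sham arrays, with TAC B well above the others. The list median was 0.09 without TAC B, 0.12 without sham B, 0.10 with array weights, 0.14 with no floor and 0.09 without both sham C and TAC B.

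Scg5, the chaperone of the convertase Pcsk2, was at 11.91 ± 0.27 in TAC and 11.47 ± 0.10 in sham ganglia (SD, n = 3 each), 0.44 higher (SE 0.15, limma adjusted p = 0.542). Carboxypeptidase D (Cpd), which trims basic residues, was at 8.75 ± 0.19 in TAC and 8.22 ± 0.41 in sham ganglia (SD, n = 3 each), its groups overlapped, and its difference was 0.53 with all arrays and 0.30 without sham B. Neurolysin (Nln), an endopeptidase that cleaves short peptides, was at 7.44 ± 0.30 in TAC and 7.85 ± 0.18 in sham ganglia (SD, n = 3 each), a difference of -0.41 (SE 0.17, limma adjusted p = 0.549) that was -0.24 without TAC B. Carboxypeptidase E (Cpe), which completes the trimming of prohormones, was bright in both groups, at 13.40 in TAC and 13.19 in sham ganglia. Pcsk6, Pam and Mme were dim, and Pcsk2 had no probe set with its symbol alone.

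Of 31 genes for the coupling of somatostatin receptors, namely G-protein subunits, potassium and calcium channels, adenylyl cyclases, tyrosine phosphatases, receptor kinases and arrestins, 26 were tested. Limma called 0 higher and 0 lower, with 2 higher and 0 lower at an unadjusted p under 0.05, against 6.03% and 3.05% of all tested probe sets. The median difference was 0.04, and it was -0.0040 after quantile normalization and -0.0077 after a median shift of the arrays. It was also 0.0088 without TAC C, 0.02 without TAC A, 0.02 without TAC B, 0.02 without both sham C and TAC B, 0.0021 with no floor and 0.07 with array weights, a floor of 6 or averaged probe sets, so that its size is not settled. The 2 were adenylyl cyclases, the enzymes that Gi-coupled receptors inhibit. Adcy3 measured 8.01, 7.97 and 8.19 log2 on TAC A, B and C, against 7.81, 7.59 and 7.77 on sham A, B and C, a difference of 0.33 (SE 0.10, limma adjusted p = 0.516). Adcy1 was 0.26 higher (SE 0.09, limma adjusted p = 0.542). Next by p came the receptor kinase Grk3 at 0.19 and Adcy9 at 0.19 (0.09 without TAC C). In place of 2, the count at an unadjusted p under 0.05 was 4 with array weights, 4 with no floor, 3 without TAC B, 3 with trend and robust, 0 without TAC C, and 1 without sham A, without sham C or after the median shift.

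The inhibitory G-protein subunits were well above the floor in both groups. Gnai2 was at 11.06 in TAC and 11.20 in sham ganglia, and Gnao1, the main Go subunit of neurons, at 10.72 in TAC and 10.62 in sham ganglia. Among the inwardly rectifying potassium channel subunits that these receptors open, Kcnj3 measured 7.59, 7.71 and 7.85 log2 on TAC A, B and C, against 7.73, 7.60 and 7.81 on sham A, B and C. Its groups overlapped fully, while its partner subunits Kcnj5, Kcnj6 and Kcnj9 were dim. The N-type calcium channel gene Cacna1b, whose channel somatostatin inhibits, was at 9.87 in TAC and 10.14 in sham ganglia. Its difference was -0.27 (SE 0.17), the groups overlapped, and TAC B at 9.53 lay below TAC A at 10.04 and TAC C at 10.02.

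Of 24 genes of the route from cAMP to CREB, 22 were tested. Limma called 0 higher and 0 lower, with 4 higher and 1 lower at an unadjusted p under 0.05, against 6.03% and 3.05% of all tested probe sets, and the median difference was 0.05. Creb1 itself, which encodes CREB, was the lower one and measured 9.04, 8.82 and 8.87 log2 on TAC A, B and C, against 9.12, 9.22 and 9.14 on sham A, B and C, a difference of -0.25 (SE 0.09, limma adjusted p = 0.542). Prkar1a, a regulatory subunit of protein kinase A, was at 13.10, 13.13 and 13.05 on the TAC arrays, against 12.82, 12.90 and 12.80 on the sham arrays, 0.25 higher (SE 0.07, limma adjusted p = 0.516). The catalytic subunit gene Prkacb was 0.25 higher (SE 0.09) and the kinase gene Sik3 0.42 higher (SE 0.17), with overlapping groups for Sik3. Pkib, an inhibitor of protein kinase A, was 1.21 higher (SE 0.50, limma adjusted p = 0.548) and is named after its value was seen. It measured 6.11, 6.74 and 6.48 on TAC A, B and C, against 5.71, 4.04 and 5.94 on sham A, B and C, with sham B well below the other 5 arrays, and the difference was 0.62 without sham B. In place of 5, the genes at an unadjusted p under 0.05 numbered 3 without sham A, 2 without sham C, 1 without TAC B, 1 without TAC C, 3 after the median shift and 0 without both sham C and TAC B, and no alternative gave more than 5. The list median was 0.0078 after the median shift and 0.09 when the probe sets of a gene were averaged.

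**Figure D5:**
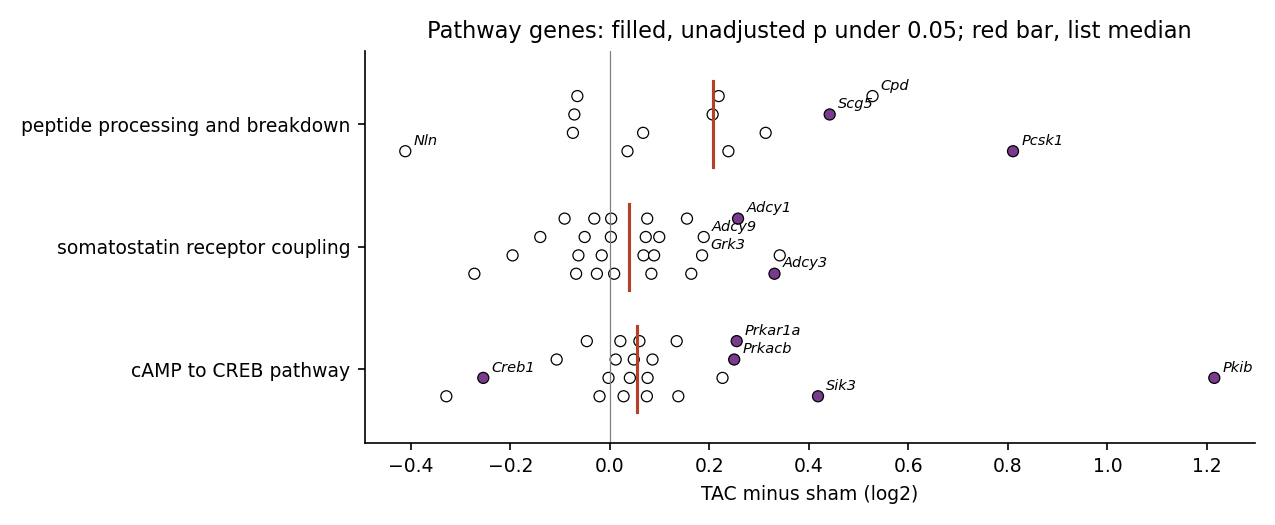
TAC minus sham difference in log2 (horizontal axis) of each tested gene of the 3 pathway lists, with filled points for an unadjusted p under 0.05 and a red bar at the list median of 0.21, 0.04 and 0.05 from top to bottom. None of the genes was called by limma after adjustment, and Pkib at 1.21 (0.62 without sham B) and Pcsk1 at 0.81 lie furthest to the right.

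The tissue label was checked against markers. All 14 measured markers of noradrenergic sympathetic neurons were above the floor, and their summed linear intensity was 134908 to 137761 on TAC and 130764 to 140226 on sham arrays. Of 8 cholinergic markers, 4 were tested. Their means over all arrays were 12.16 for Ret, 12.01 for Vip, 10.82 for Gfra2 and 10.69 for Ache. The defining Slc18a3, Chat and Slc5a7 were dim, as was Tlx3 (list sum 10672 to 14016 on TAC and 11520 to 12428 on sham arrays). Somatostatin also marks a class of itch-sensing neurons in dorsal root ganglia. Of 8 markers of that class, 7 were dim, among them Nppb at 1.72 in TAC and 1.75 in sham ganglia and Il31ra at 2.34 in TAC and 2.38 in sham ganglia, and only Osmr on TAC B reached 4.41. The summed intensity was 828 to 1027 on TAC and 836 to 932 on sham arrays, carried by the widely expressed Jak1.

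Of 9 measured markers of sensory neurons in general, 8 were dim, and the exception, Avil, was at 12.06 in TAC and 12.12 in sham ganglia (list sum 4081 to 4619 on TAC and 4346 to 4673 on sham arrays). Satellite glia and Schwann cell markers had 3 of 8 higher and 5 lower means, and their sum was 21670 to 30398 on TAC and 30365 to 32366 on sham arrays. Macrophage markers, 6 of 8 above the floor, summed to 1194 to 1312 on TAC and 1233 to 1481 on sham arrays. Skeletal muscle markers, 4 of 9 above the floor, summed to 96.1 to 261 on TAC and 82.4 to 1415 on sham arrays. Fat markers, 5 of 7 above the floor, summed to 1641 to 5111 on TAC and 2194 to 8136 on sham arrays. Limma called 0 members of these 8 lists, which held 14, 4, 1, 1, 8, 6, 4 and 5 tested markers in the order described. Before adjustment, the limma p of 4 markers was under 0.05. They were Th at 0.24, Slc18a2 at 0.29, Vip at 0.57 and Gfra2 at -0.40 (-0.25 without sham A), named after their values were seen. The same threshold was passed by 1594 of the 17550 tested probe sets of the array. The 4 are therefore not read as a change of transmitter markers. Without sham C and TAC B, the arrays with high brown fat transcripts, the difference was 3.10 for Sst, 1.96 for Cartpt and -0.64 for Sstr2. The part of the glial, muscle and fat levels in these differences was not tested.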

How the data were processed

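The authors deposited probe set intensities on a linear scale from Affymetrix Mouse Genome 430 2.0 arrays. Per the submitters' processing notes the tool was GCRMA, a method of background correction, normalization between arrays and probe summary; no version is named for it. The deposited intensities were log2-transformed without a pseudocount. Of 45037 probe sets other than 64 controls, 27487 with a mean log2 under 4 were treated as dim and 17550 were tested with limma 3.58.1 (R 4.3.3; lmFit, eBayes, two-sided, Benjamini-Hochberg over the tested probe sets, threshold 0.05). The fit was tested on simulated data. Gene symbols came from GEO's platform annotation (34945 probe sets with 1 symbol, 932 with several, 9160 with none), and all 9 member probe sets matched RefSeq by gene identifier. The brightest tested probe set stood for a listed gene. The genes named were the members, Cort, the 5 nearest profiles of each peptide and the 4 smallest p of each of 3 pathway lists, and others named are examples. The members and lists were chosen with earlier results of these data known. The number of arrays limits the precision. No pair of arrays shared more than 8 identical values, and arrays correlated at 0.980 to 0.994. Over all tested probe sets, same-letter arrays did not deviate together, though Sst, Cartpt and Sstr2 each had the same letter order in both groups. Promoter windows came from a RefSeq table (GRCm38.p6), in which 5 of the 7 genes were matched by symbol; windows of Sstr1 and Sstr5 were not analysed here. Alternatives covered the floor, variance model, array weights, normalization, log scale, title letter, probe sets per gene and arrays left out. Figures used matplotlib 3.10.9.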

Additional observations from a re-analysis of the deposited data

How the results depend on the processing

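The comparison without both sham C and TAC B, the alternatives for Sstr2 and the single pathway genes with 1 array left out were chosen after seeing the data. Sst, Cartpt and Sstr2 kept their direction in every alternative that gave a value. With a floor at a mean log2 of 6, Sst and Sstr2 fell out and gave none. The Sst difference was 1.90 with log2(intensity + 16), in place of 2.89, because the added constant compresses low values. With 1 array left out in turn it was 2.59 to 3.08, and the Cartpt difference was 1.72 to 2.00. Limma called 0 probe sets in every alternative fit with all arrays, 0 to 1 when single arrays were dropped (the 1 came without TAC C), and 328 had an unadjusted p under 0.01, 234 higher and 94 lower. The receptor probe sets with a higher TAC mean numbered 0 of 7 as reported, 4 after quantile normalization and 0 to 1 with 1 array left out (1 without sham C, a dim probe set of Sstr4). The pathway lists had 0 calls in every alternative. With the title letter as a replicate block, limma called 0 probe sets, with 1426 at an unadjusted p under 0.05, and the SE of the differences was 0.20 for Sst (difference 2.89), 0.11 for Cartpt (difference 1.89) and 0.11 for Sstr2 (difference -0.65); 0 receptor probe sets had a higher TAC mean, and 0 pathway genes were called, with 2, 1 and 1 of the processing, coupling and CREB lists at an unadjusted p under 0.05. Over all tested probe sets, the correlation of same-letter deviations was 0.08 for A, -0.0031 for B and -0.17 for C. Sst, Cartpt and Sstr2, however, each had the same order of the letters in the TAC and the sham group. Whether same-letter arrays shared a batch was not tested. Quantile normalization moved the median of all tested probe sets by -0.04 and the median shift by -0.05. Values near background and 3 arrays per group limit what can be said of dim receptors.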
